A study of Mus musculus with 12 samples.

Results

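The shape of the UVB dose response was described for the mature microRNAs (miRNAs) of mouse skin, by asking which of them departed from a straight line in dose. All 12 libraries of the series entered, and of 1519 miRNA arms listed, the 590 with at least 1 CPM (the reads of an arm scaled to a library total of 1000000 miRNA reads) in at least 3 libraries were tested. The libraries were made from whole skin of C57BL/6 mice, an inbred strain, aged 6 to 8 weeks. Groups were control (0 mJ/cm2, labelled untreated), UVB_90 (90 mJ/cm2), UVB_180 (180 mJ/cm2) and UVB_360 (360 mJ/cm2), with 3 libraries each. UVB is the band of ultraviolet light that damages DNA in the epidermis and causes sunburn, and the study set normal skin beside acutely irradiated skin. Nothing in the labels ties the 3 libraries of a group to different animals, and the p-values therefore reflect variation among these libraries, which could be technical. The interval between irradiation and sampling is not given in the sources used here. Skin is a mixture of cell types, and in bulk samples a smaller number of cells of a type and a lower level per cell cannot be told apart.

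A miRNA gene is transcribed as a hairpin, from which a strand of the 5′ side (the 5p arm) or of the 3′ side (the 3p arm) is loaded into Argonaute. The loaded arm pairs with messenger RNAs mainly through its seed, a short run of bases near its 5′ end, and lowers their stability and translation. Arms with the same seed can act on the same messages, and hairpins that lie close together on a strand are often made from a shared transcript. In irradiated skin, DNA damage activates p53, keratinocytes and resident cells release inflammatory signals, and leukocytes enter the tissue. Each of these is known to raise or lower particular miRNAs, and a response to dose can level off, begin late or turn back.

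The results turned on a small number of arms, whose mature sequences follow so that shared seeds can be seen. Sequences are RefSeq's, with positions on GRCm38.p6, are written 5′ to 3′ in lower case, and carry the seed, bases 2 to 8, in capitals. The first set are arms that rose at 90 mJ/cm2 over control and departed from the line with negative bends. miR-34b-5p lies at chr9:51103610-51103632 and miR-34b-3p at chr9:51103574-51103595 on the minus strand, and miR-34c-3p at chr9:51103044-51103065 on the same strand. miR-34b-3p and miR-34c-3p share a seed.
miR-34b-5p: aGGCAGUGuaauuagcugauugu
miR-34b-3p: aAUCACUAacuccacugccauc
miR-34c-3p: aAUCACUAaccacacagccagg
miR-21a-5p: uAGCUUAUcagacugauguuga
miR-335-3p: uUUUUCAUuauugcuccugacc
miR-212-5p: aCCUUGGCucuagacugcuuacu
miR-132-5p: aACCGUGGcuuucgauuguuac

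The second set carry the seed of the miR-15/16 family or of the miR-29 family, and most of them had a minimum or an early low plateau. miR-497a-5p lies at chr11:70234730-70234751 and miR-195a-5p at chr11:70235062-70235082 on the plus strand, 332 bases apart. miR-15a-5p lies at chr14:61632075-61632096 on the minus strand, 139 bases from a copy of miR-16-5p, which has a further copy on chromosome 3. miR-15b-5p, miR-322-5p and miR-29a-3p are shown because they carry the same seeds and did not pass the test.
miR-497a-5p: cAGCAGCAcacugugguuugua
miR-195a-5p: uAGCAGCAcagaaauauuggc
miR-15a-5p: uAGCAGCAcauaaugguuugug
miR-16-5p: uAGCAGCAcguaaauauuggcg
miR-15b-5p: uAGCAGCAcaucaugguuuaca
miR-322-5p: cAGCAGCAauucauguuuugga
miR-29c-3p: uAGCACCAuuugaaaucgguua
miR-29b-3p: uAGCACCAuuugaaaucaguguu
miR-29a-3p: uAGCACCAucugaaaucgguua

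The last pair turned back at 360 mJ/cm2 in opposite directions. miR-31-5p lies at chr4:88910614-88910635 on the minus strand and miR-136-5p at chr12:109595331-109595352 on the plus strand.
miR-31-5p: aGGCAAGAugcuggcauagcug
miR-136-5p: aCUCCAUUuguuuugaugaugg

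The libraries held 3164422 to 8063815 miRNA reads, so that a single read was worth 0.124 to 0.316 CPM. Some features of single libraries bear on shapes. Control replicate 3 resembled UVB_90 replicate 1 most closely (r = 0.985 across arms, which are not independent replicates), while control replicates 1 and 2 were nearest to each other. UVB_180 replicate 1 in turn lay closest to UVB_90 replicate 3, and the reverse held too (r = 0.990 across arms). The 14 tested arms of a keratinocyte and epithelial list, as a mean log2 difference from the controls, stood at -0.51, -0.51 and -1.86 at 90 mJ/cm2, -1.17, -0.50 and -0.48 at 180 mJ/cm2 and -2.32, -1.35 and -2.25 at 360 mJ/cm2. The count of departures is therefore given with and without these libraries.

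Departure from a straight line was tested by comparing a fit with a free mean at each dose with a line in dose, on log2(CPM + 1), a scale that understates the change of scarce arms. A pair of bends describes the departure. The wide bend is the change over 360 against 180 mJ/cm2 minus the change over 180 against 0, and the narrow bend is the change over 180 against 90 mJ/cm2 minus the change over 90 against 0. Both are 0 on a straight line. They are negative where a rise slows or turns or a fall steepens, and positive where a fall slows or turns or a rise steepens. A call is a Benjamini-Hochberg adjusted p under 0.05 from limma over the 590 arms.

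The straight line failed for 54 of 590 arms (9.15%, limma), among 237 (40.2%) that differed between any doses and 177 (30.0%) with a slope in dose. Of the 54 arms, 33 were saturating, 10 had a peak at a middle dose, 10 had a trough there, 1 lay between these classes and 0 were late-onset. Saturating means that over 75% of the change at 360 mJ/cm2 was present at 180, late-onset under 25%, and a peak or trough that a middle dose lay beyond both ends by 0.5 log2 units or more. The classes are descriptions of the group means, with no test. Across all 590 arms the same definitions gave 229 saturating, 122 late-onset, 36 peak and 26 trough arms. The arm just inside the threshold was miR-455-3p (adjusted p = 0.0488 in limma) and the arm just outside was miR-151-5p (adjusted p = 0.0501).

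The departures were also described by where on the dose range they lay. The group mean farthest from the line was control in 30 of the 54 arms, UVB_90 in 18, UVB_180 in 6 and UVB_360 in 0. With these dose spacings the UVB_360 mean can never be the farthest from a fitted line. Its count of 0 was thus fixed in advance and says nothing about the arms. Of the 54, 52 had a called change at 90 mJ/cm2 over control, where the background was 151 of 590 arms (25.6%). None had a called change at 180 over 90 mJ/cm2. That step gave 0 calls among all 590 arms in limma, edgeR and DESeq2, with 19 arms at an unadjusted limma p under 0.05. At 360 over 180 mJ/cm2, 3 of the 54 had a called change, a share near the background of 24 of 590 arms (4.07%). Both bends had the same sign in 53 of the 54, and in 385 of all 590. These counts share their libraries with the test that chose the 54 arms and are a description of them.

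**Figure D1:**
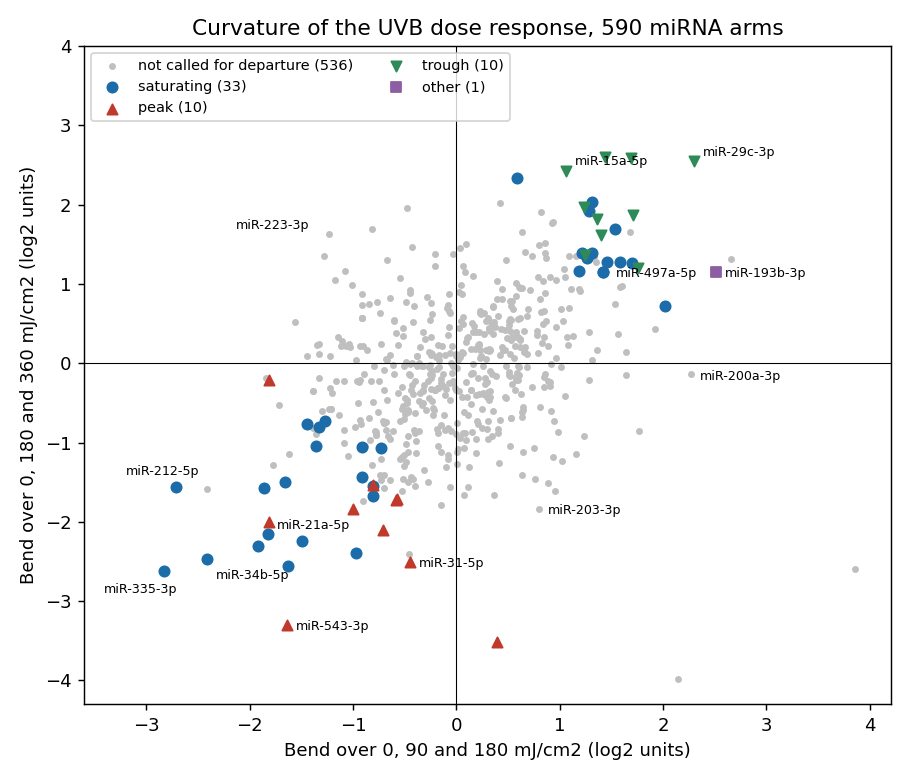
Each point is a miRNA arm, with the narrow bend (0, 90 and 180 mJ/cm2) on the horizontal axis and the wide bend (0, 180 and 360 mJ/cm2) on the vertical axis, both in log2 units; colours and symbols mark the classes of the 54 arms called for departure and grey marks the rest. All but 1 of the called arms lie in the lower left, where both bends are negative, or in the upper right, where both are positive.

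Leaving out single libraries moved the count more than any choice of scaling did. Without control replicate 1 the count of departures was 13, without control replicate 3 it was 105, and without any other single library it lay between 19 and 45. Without UVB_90 replicate 3 and UVB_180 replicate 1 together it was 17, of which 16 were among the 54. The calls of 12 arms held without each of the 12 libraries in turn, and no bend of the 54 changed sign in those fits. The 12 arms were miR-21a-5p, miR-31-5p, miR-34b-5p, miR-34b-3p, miR-34c-5p, miR-132-5p, miR-190a-5p, miR-195a-5p, miR-212-5p, miR-335-5p, miR-335-3p and miR-497a-5p. On recovered reads, 52 of the 54 passed in edgeR and 50 in DESeq2.

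Of the 2 bends taken singly, the wide bend was called as negative in 11 arms (1.86%) and as positive in 2 (0.339%). The 11 were miR-34b-5p, miR-34b-3p, miR-34c-5p, miR-34c-3p, miR-21a-5p, miR-31-5p, miR-125b-1-3p, miR-543-3p, miR-1964-3p, miR-615-3p and miR-219a-2-3p, and the positive ones were miR-190a-5p and miR-6369, several of them chosen for naming after their values were seen. All 13 also departed from the line in the joint test. Without UVB_180 replicate 1 or 2, or UVB_360 replicate 1 or 3, no wide bend was called, and the smallest limma adjusted p then lay between 0.0551 and 0.0693. Without control replicate 3 there were 69. The narrow bend had 0 calls in limma, with 90 arms at an unadjusted p under 0.05, 3 calls in edgeR and 22 in DESeq2. A bend was measured coarsely: at the median arm its 95% interval reached 1.08 log2 units to either side.

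Arms that rose to a plateau were led by miR-34b and miR-34c, neighbouring hairpins whose transcription p53 activates. All 4 tested arms of the pair departed from the line, against 9.15% of all arms, and all 4 rose at 90 mJ/cm2 over control, against 13.2%. miR-34b-5p had 51.8, 51.5 and 23.1 CPM in control, 199, 233 and 249 CPM in UVB_90, 212.4, 205 and 307 CPM in UVB_180 and 204, 286 and 274 CPM in UVB_360 libraries. All 9 irradiated libraries lay above all 3 controls, and the 3 irradiated groups overlapped. Its change was 2.48 ± 0.29 log2 units (SE) at 90 mJ/cm2 over control and 0.09 at 360 over 180, with a 95% interval of -0.53 to 0.70. The wide bend was -2.47 ± 0.50 and the departure had a limma adjusted p of 0.0031.

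miR-34c-5p had 157, 165 and 66.1 CPM in control, 494, 612 and 615 CPM in UVB_90, 613, 638 and 927 CPM in UVB_180 and 744, 925 and 912 CPM in UVB_360 libraries. Again the controls lay apart. UVB_180 overlapped UVB_90 and UVB_360, but every UVB_360 library lay above every UVB_90 library. The wide bend was -2.30 ± 0.51 (limma adjusted p of the departure 0.0091). The 3p arms rose as well, at a lower level, with 23.6 to 46.4 CPM of miR-34b-3p in the 9 irradiated libraries and 2.13 to 10.3 CPM in the controls. The call of miR-34c-3p (limma adjusted p = 0.020) was lost without control replicate 1, where its adjusted p was 0.0634. miR-34a-5p, which p53 also activates from a separate locus, had a wide bend of 0.22 ± 0.38 and a departure adjusted p of 0.80 in limma. Its change at 360 over control was -0.92 log2 units (limma adjusted p = 0.0037), a fall where miR-34b and miR-34c rose.

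miR-21a-5p, a miRNA induced in wounded and inflamed tissue, had a higher mean at each dose. It had 20055, 26876 and 20866 CPM in control, 72954, 104232 and 145390 CPM in UVB_90, 128928, 113909 and 167646 CPM in UVB_180 and 177643, 192652 and 178726 CPM in UVB_360 libraries. The controls lay far below the rest, UVB_90 and UVB_180 overlapped, and the UVB_360 libraries lay above all others. At 90 mJ/cm2 73% of the log2 change at 360 was present and at 180 mJ/cm2 86%, where a straight line gives 25% and 50%. The change was 2.21 ± 0.25 at 90 over control and 0.44 at 360 over 180 (95% interval -0.08 to 0.96), and the departure had a limma adjusted p of 0.0031.

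Both arms of miR-335, which is encoded within the imprinted gene Mest, rose at 90 mJ/cm2 over control. miR-335-3p had 12.03, 21.2 and 40.4 CPM in control, 91.9, 171 and 235 CPM in UVB_90, 126, 141 and 183 CPM in UVB_180 and 159, 232 and 104 CPM in UVB_360 libraries. No irradiated library overlapped the controls, while the spread among irradiated libraries of a dose was wide. Its change was 2.77 ± 0.41 at 90 over control and 0.08 at 360 over 180 (95% interval -0.79 to 0.95), with a limma adjusted p of 0.012 for the departure. The 5p arm departed too (wide bend -1.49 ± 0.47, adjusted p = 0.016 in limma), with a change of 1.79 log2 units at 90 over control and of 0.44 at 360 over 180.

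miR-132 and miR-212, whose shared transcript is driven by CREB and which lie 283 bases apart measured from 5p arm to 5p arm, rose early as well. miR-212-5p had 2.48, 5.79 and 5.31 CPM in control, 18.3, 21.8 and 34.7 CPM in UVB_90, 18.8, 11.7 and 22.5 CPM in UVB_180 and 21.2, 25.2 and 14.5 CPM in UVB_360 libraries. The highest library was one of UVB_90, and the 3 irradiated groups overlapped. Its narrow bend was -2.71 ± 0.59 and its departure had a limma adjusted p of 0.012, as had that of miR-132-5p with a wide bend of -1.57 ± 0.46. All 4 tested arms of the pair rose at 90 mJ/cm2 over control, against 13.2% of all arms, and all 4 wide bends were negative. For departure 2 of the 4 passed, against 9.15% of all arms. The 3p arms of miR-132 and miR-212 did not pass (adjusted p = 0.12 and 0.14 in limma).

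Among the other rising saturating arms, miR-7a-5p and miR-146b-5p were chosen after their values were seen. miR-7a-5p had 1605 to 2188 CPM in control, 3569 to 4623 CPM in UVB_90, 3317 to 4116 CPM in UVB_180 and 3708 to 4664 CPM in UVB_360 libraries. miR-146b-5p, which belongs to a pair of miRNAs that dampen NF-kB signalling, had 1525 to 2668 CPM in control, 3657 to 5050 CPM in UVB_90, 2609 to 4636 CPM in UVB_180 and 2917 to 3387 CPM in UVB_360 libraries. In miR-7a-5p the controls lay apart from the rest, and in miR-146b-5p the highest control was above the lowest UVB_180 library. The departure of miR-7a-5p was lost without any of 4 single libraries, and that of miR-146b-5p without any of 8. Over the 19 rising saturating arms, the change at 90 over control was 0.74 to 2.77 log2 units (median 1.75), all 19 called, against 78 of 590 arms that rose (13.2%). Their change at 360 over 180 was -0.41 to 0.44 (median 0.08), with 0 called. The class rule limits the part of the change left after 180 mJ/cm2, so a small step there was partly fixed by the choice of arms.

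**Figure D2:**
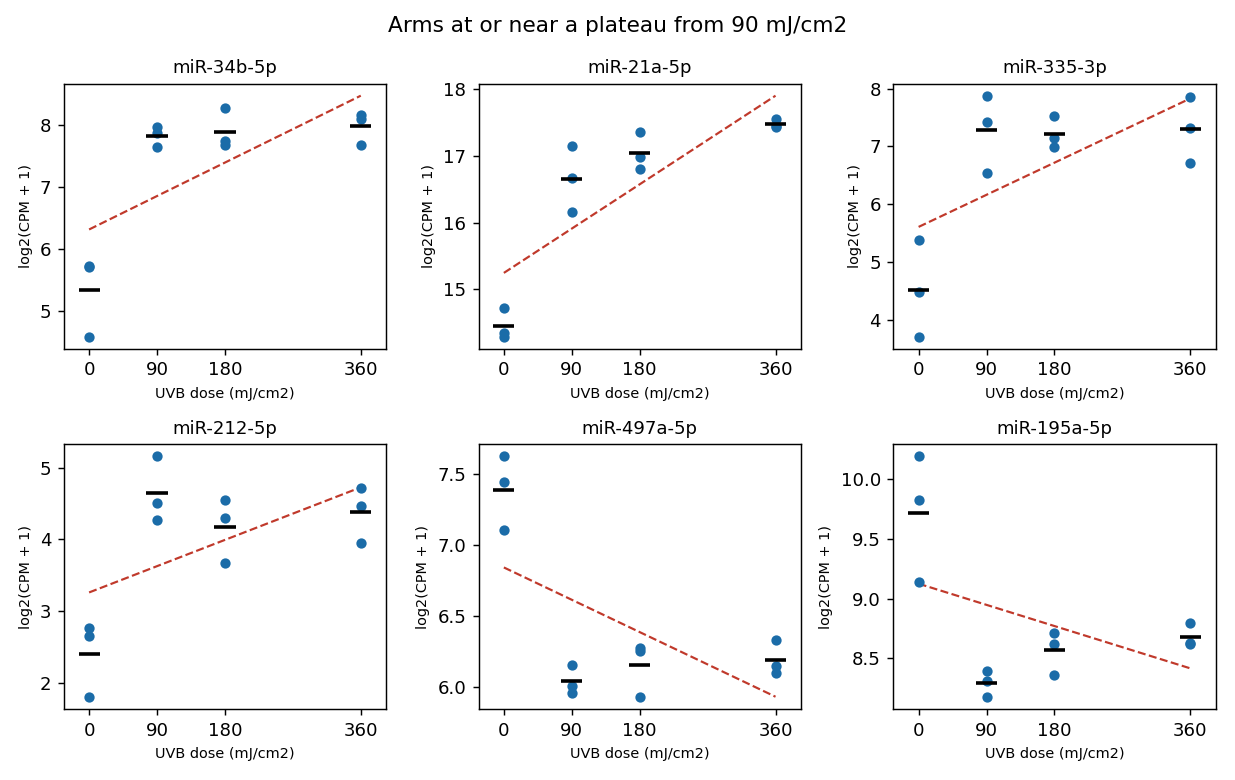
Each panel shows an arm, with UVB dose in mJ/cm2 on the horizontal axis and log2(CPM + 1) on the vertical axis; blue points are libraries, black bars are means of 3 libraries and the dashed red line is the fitted straight line in dose. In miR-34b-5p the control mean lies below the line and the UVB_90 mean above it, and in miR-497a-5p and miR-195a-5p the positions are reversed.

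Falls to a plateau were led by miR-497a-5p and miR-195a-5p, which are made from neighbouring hairpins and belong to the miR-15/16 family, known for restraining cell cycle genes. miR-497a-5p had 196, 173 and 136 CPM in control, 63.5, 61.2 and 70.4 CPM in UVB_90, 76.5, 60.0 and 75.5 CPM in UVB_180 and 79.6, 70.0 and 67.6 CPM in UVB_360 libraries. All irradiated libraries lay within 60.0 to 79.6 CPM, below the lowest control, with no order by dose. It fell by 1.34 ± 0.21 log2 units at 90 mJ/cm2 over control, and its change at 360 over 180 was 0.04 (95% interval -0.40 to 0.48). The departure had a limma adjusted p of 0.012, while the slope in dose did not pass (adjusted p = 0.062).

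miR-195a-5p had 1167, 906 and 562 CPM in control, 288, 318 and 335 CPM in UVB_90, 419, 328 and 394 CPM in UVB_180 and 444, 395 and 393 CPM in UVB_360 libraries. Every irradiated library was below every control, and the UVB_90 mean was the lowest of the 4 groups. Its narrow bend was 1.69 ± 0.41 (limma adjusted p of the departure 0.012). miR-101a-3p, also chosen after its values were seen, had 2127 to 2820 CPM in the 9 irradiated libraries and 8358, 5902 and 3147 CPM in the controls. Its departure (limma adjusted p = 0.036) was lost without any of 10 single libraries. miR-101c is listed at nearly the same values in each library, so these 2 arms may share reads and are uncertain as separate members.

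The remaining falling saturating arms included miR-345-5p, miR-130a-3p, miR-574-3p and miR-181c-5p. miR-181c-5p met the class rule without a level course, since it had a lower mean at each dose. Its change at 360 over 180 had a 95% interval of -1.23 to -0.12 log2 units, unadjusted, and was not called. It had 50.1, 38.6 and 44.1 CPM in control, 18.6, 10.99 and 10.5 CPM in UVB_90, 9.23, 10.9 and 9.09 CPM in UVB_180 and 5.17, 7.02 and 5.06 CPM in UVB_360 libraries. The UVB_360 libraries lay below all others, and 62% of its log2 change at 360 was present at 90 mJ/cm2. Its departure was lost without any of 4 single libraries, and that of miR-574-3p without any of 5. Over the 14 falling saturating arms, the change at 90 over control was -1.69 to -1.14 log2 units (median -1.40), all 14 called, against 73 of 590 arms that fell (12.4%), and 0 were called at 360 over 180. As in the rising arms, the class rule limits that last step. miR-193b-3p, the arm between the classes, fell by 2.29 ± 0.39 log2 units at 90 over control and had 69% of its change at 180 mJ/cm2 (limma adjusted p of the departure 0.031). That departure was lost without any of 7 single libraries.

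Seeds were shared within these groups. Of the 54 arms, 50 matched a RefSeq mature sequence, as did 501 of the 590, and 8 shared a seed with another departing arm. Among the 501, 147 shared a seed with another tested arm, which is a wider condition. The seed AGCAGCA was carried by 6 tested arms. Of these, miR-15a-5p, miR-16-5p, miR-195a-5p and miR-497a-5p departed with positive bends, where 9.15% of all arms departed. miR-15b-5p and miR-322-5p, with the same seed, did not pass (limma adjusted p = 0.625 and 0.638). miR-322-5p had 31.1 to 39.5 CPM in control, 47.3 to 68.6 CPM in UVB_90, 56.3 to 75.5 CPM in UVB_180 and 96.3 to 115 CPM in UVB_360 libraries, with a called rise in slope (limma adjusted p = 0.00022), so members of a seed family moved in opposite directions. The seed AGCACCA of the miR-29 family was carried by miR-29c-3p and miR-29b-3p, which departed, and by miR-29a-3p, which did not pass (adjusted p = 0.14 in limma).

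Some of the departing arms lay close together in the genome, as many miRNA hairpins do. On GRCm38.p6, pairs of departing arms on 1 strand were miR-29b-3p and miR-29c-3p (509 bases apart), miR-34c-3p and miR-34b-3p (530 bases), miR-351-5p and miR-322-3p (954 bases) and miR-494-3p and miR-543-3p (1937 bases), besides the pairs already given. Both arms of a hairpin were tested for 166 hairpins. In 4 of these both arms departed and in 25 a single arm did, and the wide bend had the same sign in both arms of 23 of these 29, against 110 of the 166. Across the 166 hairpins the wide bends of the 2 arms had a Spearman rho of 0.388, a description of arms that share a precursor and libraries.

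Troughs were arms with their lowest mean at 90 or 180 mJ/cm2. miR-29c-3p, of the family that targets collagen messages, had 60.1, 32.1 and 14.6 CPM in control, 3.55, 7.76 and 8.83 CPM in UVB_90, 6.64, 6.08 and 9.68 CPM in UVB_180 and 9.61, 11.97 and 14.2 CPM in UVB_360 libraries. Control replicate 3 was just above the highest UVB_360 library, and the other controls lay well above. It fell by 2.11 ± 0.42 log2 units at 90 mJ/cm2 over control, and the wide bend was 2.54 ± 0.72 (limma adjusted p of the departure 0.016). Without control replicate 1 the departure was not called (adjusted p = 0.0568). The change at 360 over 180, 0.62 log2 units, did not pass (adjusted p = 0.40 in limma).

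miR-16-5p had 2513, 1855 and 863 CPM in control, 731, 789 and 835 CPM in UVB_90, 944, 796 and 1017 CPM in UVB_180 and 1266, 1327 and 1462 CPM in UVB_360 libraries. Its UVB_360 libraries lay above control replicate 3 and below the other controls, and its slope in dose was close to 0. miR-15a-5p, made beside a copy of miR-16, had 108, 75.9 and 27.4 CPM in control, 24.2, 23.9 and 25.5 CPM in UVB_90, 22.2, 18.5 and 22.3 CPM in UVB_180 and 40.4, 34.1 and 49.0 CPM in UVB_360 libraries. In both arms control replicate 3 was the control nearest to the irradiated libraries. The departures had limma adjusted p-values of 0.048 for miR-16-5p and 0.029 for miR-15a-5p, and were lost without 11 and 9 of the 12 single libraries.

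A lower level in control replicate 3 than in the other controls ran through several lists beside these troughs. The 5 tested miR-29 arms stood at 0.67, 0.12 and -0.79 log2 units around the control mean, and the 10 tested miR-15/16 arms at 0.20, 0.07 and -0.26. The 6 tested of 10 listed skeletal muscle arms, markers of striated muscle, stood at 0.34, 0.39 and -0.73 in controls, at -0.96 to -0.69 in UVB_90, at -1.60 to -0.58 in UVB_180 and at -0.55 to -0.40 in UVB_360 libraries. Of these 6 muscle arms 1 departed, miR-1a-1-5p, against 9.15% of all arms, and 3 fell at 90 mJ/cm2 over control, against 12.4%. miR-133a-3p, a defining muscle arm, was at 1552 to 3777 CPM in the irradiated libraries and had 7524, 8778 and 3037 CPM in the controls. The part of muscle content in the trough shapes was not tested.

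Of the 54 arms, 3 turned on both sides, with called changes in opposite directions before and after a middle dose. These were miR-31-5p, miR-136-5p and miR-592-5p, the last named outside the rule because the count is small. miR-31-5p, known for its rise in wounded and hyperproliferative epidermis, had 202, 261 and 305 CPM in control, 473, 582 and 319 CPM in UVB_90, 495, 516 and 738 CPM in UVB_180 and 184, 322 and 200 CPM in UVB_360 libraries. All UVB_180 libraries lay above all controls and all UVB_360 libraries, while 1 UVB_90 library overlapped the UVB_360 range. It rose by 0.82 ± 0.28 log2 units at 90 mJ/cm2 over control (limma adjusted p = 0.041) and fell by 1.33 at 360 over 180 (adjusted p = 0.025). At 360 over control the difference was -0.15 ± 0.28, and the slope in dose did not pass (adjusted p = 0.67). Its departure from the line (limma adjusted p = 0.012) held without each library in turn. Its rise at 90 was lost without 6 of the 12 libraries, with adjusted p-values up to 0.164, and its fall at 360 over 180 without 4 of them, with adjusted p-values up to 0.137.

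miR-136-5p, from the imprinted Dlk1-Dio3 miRNA locus, took the opposite course. It had 161, 88.4 and 70.1 CPM in control, 49.4, 40.7 and 68.8 CPM in UVB_90, 64.6, 81.8 and 63.8 CPM in UVB_180 and 190, 143 and 193 CPM in UVB_360 libraries. The UVB_360 libraries lay above all others but 1 control, control replicate 1. It fell by 0.94 ± 0.29 log2 units at 90 mJ/cm2 over control (limma adjusted p = 0.029) and rose by 1.31 at 360 over 180 (adjusted p = 0.030), with a wide bend of 1.82 ± 0.50. Its departure (limma adjusted p = 0.021) did not pass when control replicate 1 was left out (adjusted p = 0.068), nor when UVB_90 replicate 2 was (adjusted p = 0.0605). The fall at 90 was lost without control replicate 1, UVB_90 replicate 1 or UVB_90 replicate 2, with adjusted p-values up to 0.154. The rise at 360 over 180 was lost without any of 4 single libraries, with limma adjusted p-values up to 0.174. Of the 79 tested arms of its locus, 4 departed, against 54 of 590 over all arms (9.15%), and the list's median wide bend was -0.33, against -0.05 over all arms.

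miR-592-5p was scarce, at 1.12, 0.99 and 1.86 CPM in control, 4.73, 3.88 and 5.75 CPM in UVB_90, 1.44, 2.52 and 6.92 CPM in UVB_180 and 1.23, 1.04 and 0.32 CPM in UVB_360 libraries. Its UVB_90 libraries lay above all controls and all UVB_360 libraries. The count of arms that turned on both sides was 3 in the limma fit, 4 in edgeR and 6 in DESeq2, and included miR-31-5p and miR-136-5p in all of these. Without UVB_360 replicate 3 it was 0, without control replicate 3 it was 14, and without UVB_90 replicate 2 it was 1, miR-31-5p. The step at 360 over 180 itself was called in 0 arms without UVB_180 replicate 2, UVB_180 replicate 3 or UVB_360 replicate 1, and in 45 without UVB_90 replicate 3.

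Other peaks passed for departure without a called change on each side. miR-125b-1-3p, the passenger arm of a miR-125b hairpin, had 56.1, 63.5 and 61.9 CPM in control, 99.0, 101 and 126 CPM in UVB_90, 162, 109 and 123 CPM in UVB_180 and 74.7, 82.7 and 93.2 CPM in UVB_360 libraries. The UVB_360 libraries lay between the controls and all libraries of the middle doses, with no overlap. The wide bend was -1.72 ± 0.37 (limma adjusted p of the departure 0.016, and 0.0542 without control replicate 1), and the change at 360 over 180 was -0.63 (adjusted p = 0.090).

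miR-543-3p, of the Dlk1-Dio3 locus, had 2.11, 4.80 and 12.8 CPM in control, 16.3, 21.1 and 29.6 CPM in UVB_90, 27.1, 27.05 and 22.1 CPM in UVB_180 and 16.01, 11.4 and 5.69 CPM in UVB_360 libraries. The middle doses lay above all controls and all UVB_360 libraries, and controls and UVB_360 overlapped. Its wide bend was -3.30 ± 0.78 (limma adjusted p of the departure 0.018, and 0.0542 without control replicate 1). Over the 10 peak arms, the change at 360 over 180 was -1.64 to 0.11 log2 units (median -0.95), called in 2, and at 360 over control no change was called. The class rule, which sets a middle dose beyond both ends, bears on these values, so they only describe the class.

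**Figure D3:**
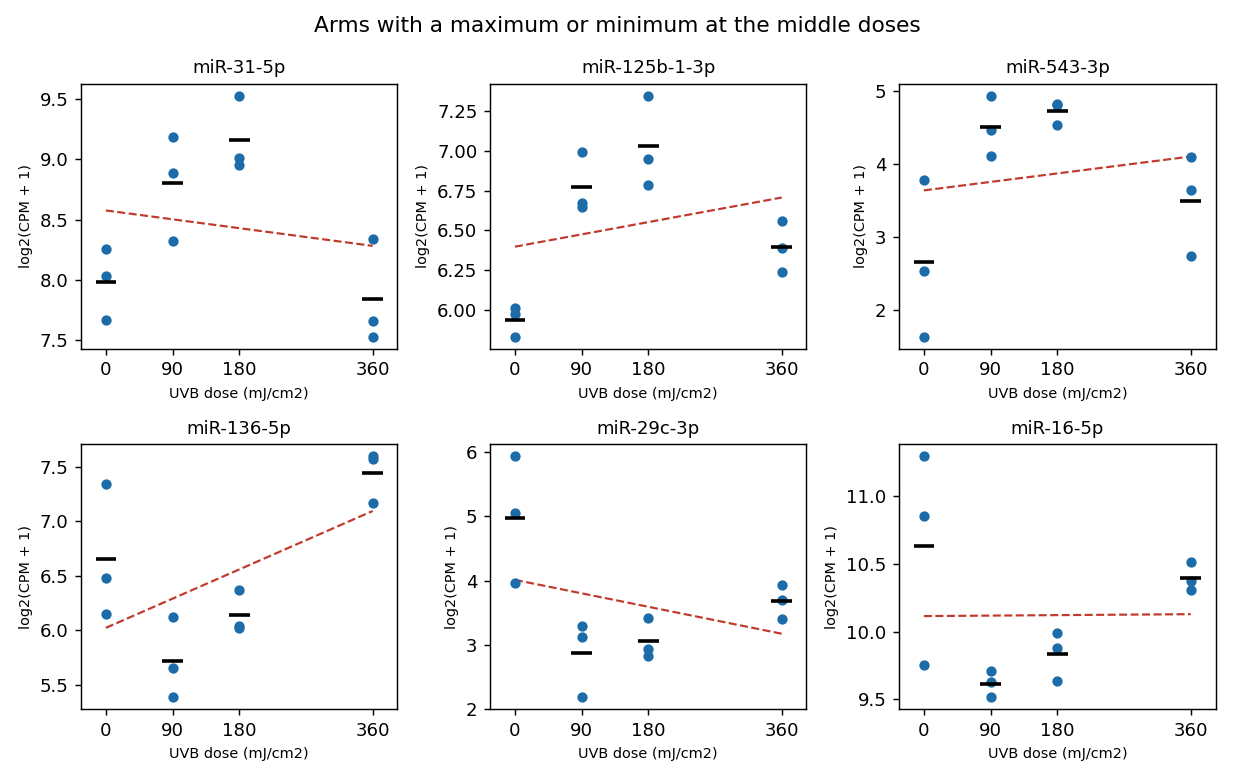
Axes and symbols are as in the plot of plateau arms, for 3 arms with a peak (top row) and 3 with a trough (bottom row). The UVB_180 mean of miR-31-5p is the highest of its 4 groups, while in miR-29c-3p and miR-16-5p the 3 controls are spread widely. The lowest control lies near the UVB_360 libraries in miR-29c-3p and below them in miR-16-5p.

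No late-onset arm was called for departure. The dose spacing bears on this count: of the sum of squares of the 4 group means, a line leaves 53.3% for a change complete at 90 mJ/cm2 and 22.9% for a change at 360 alone. For changes of equal size the part left by the line is thus 2.33 times as large for the early one, so an equally large late change is harder to call. Late-onset arms were called under 4 alternatives, with 1 arm at a pseudocount of 5 (miR-330-3p), 2 arms with no filter (miR-449c-5p and miR-6996-3p, both with means under 1 CPM), 1 with a mean of at least 10 CPM required (miR-376b-3p) and 1 without control replicate 3 (miR-194-5p). They were named after their values were seen.

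The step to the highest dose was described apart from the departures. Of the 24 arms called at 360 over 180, 10 rose (1.69% of 590) and 14 fell (2.37%), and 3 of them departed from the line, a share near that over all arms (54 of 590, 9.15%). These calls, and those of this step named below, are limma's. No arm was called at this step in edgeR, and more were called in DESeq2. miR-223-3p, the miRNA of neutrophils and other myeloid cells, had 85.8, 101 and 56.6 CPM in control, 77.1, 124 and 702 CPM in UVB_90, 277, 97.9 and 258 CPM in UVB_180 and 1301, 1286 and 1758 CPM in UVB_360 libraries. The UVB_360 libraries lay above all others, while UVB_90 replicate 3 lay above all UVB_180 libraries. It rose by 2.90 ± 0.59 log2 units at 360 over 180 mJ/cm2 (limma adjusted p = 0.025). Its wide bend of 1.63 ± 1.02 and its departure (adjusted p = 0.43) did not pass.

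miR-147-3p, induced in macrophages by Toll-like receptor signals, had 0.87, 0.33 and 3.98 CPM in control, 3.55, 2.80 and 14.2 CPM in UVB_90, 10.7, 3.14 and 6.92 CPM in UVB_180 and 41.9, 46.0 and 97.3 CPM in UVB_360 libraries. As in miR-223-3p, UVB_90 replicate 3 was the highest library below 360 mJ/cm2. Its rise at 360 over 180 was 3.01 log2 units (limma adjusted p = 0.025) with no called departure (adjusted p = 0.46). Of the 6 tested myeloid arms, 4 rose at 360 over 180, against 1.69% of all arms. A single one departed from the line, against 9.15% of all arms. It was miR-511-5p, whose hairpin lies in the macrophage receptor gene Mrc1 and which had a peak. The myeloid list stood at 0.55, 0.83 and 2.27 log2 units over the controls in UVB_90, at 1.65, 0.75 and 1.63 in UVB_180 and at 2.78, 2.79 and 2.99 in UVB_360 libraries.

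miR-203-3p, which promotes keratinocyte differentiation by repressing p63, had 61268, 67706 and 72175 CPM in control, 65260, 70261 and 21585 CPM in UVB_90, 30964, 73229 and 76229 CPM in UVB_180 and 9550, 28063 and 8216 CPM in UVB_360 libraries. UVB_90 replicate 3 and UVB_180 replicate 1 lay below all controls, and the other 4 libraries of the middle doses lay within or above the control range. It fell by 2.10 ± 0.48 log2 units at 360 over 180 mJ/cm2 (limma adjusted p = 0.030), with a departure adjusted p of 0.29. Without those 2 low libraries its wide bend was -2.68 and its departure had an adjusted p of 0.0848, and in the same fit miR-223-3p had a wide bend of 2.16 and an adjusted p of 0.108.

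Of the 14 tested keratinocyte and epithelial arms, 7 fell at 360 over 180, against 2.37% of all arms, and 0 departed from the line, against 9.15%, a count too small to set the list apart. miR-205-5p (wide bend -1.40 ± 0.67, departure adjusted p = 0.31 in limma) had the shape of miR-203-3p. miR-200a-3p, which represses the Zeb factors, instead fell both at 90 over control (by 2.19 ± 0.45) and at 360 over 180 (by 2.26 ± 0.45), with a level middle and a departure adjusted p of 0.14 in limma. The calls at 360 over 180 of miR-223-3p, miR-147-3p, miR-203-3p, miR-205-5p and miR-200a-3p were all lost without UVB_180 replicate 2 or 3, or UVB_360 replicate 1 or 3, with adjusted p-values up to 0.174.

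Some arms followed the line closely. By the ratio of the largest departure of a group mean to the fitted change, the 5 straightest were miR-145a-5p, let-7c-5p, let-7j, miR-211-5p and miR-181a-1-3p. miR-211-5p, made from the melanocyte gene Trpm1, had 53.9, 79.9 and 117 CPM in control, 69.5, 48.7 and 13.96 CPM in UVB_90, 7.21, 31.9 and 19.6 CPM in UVB_180 and 4.19, 7.02 and 2.53 CPM in UVB_360 libraries. Neighbouring doses overlapped up to 180 mJ/cm2, and the UVB_360 libraries lay below all others. Successive differences between the means of let-7c-5p were -0.27, -0.32 and -0.60 log2 units, none called by itself, within a called fall of 1.19 at 360 over control (limma adjusted p = 0.00047). miR-145a-5p, of vascular and other smooth muscle, had bends of 0.05 ± 0.38 and 0.02 ± 0.38.

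**Figure D4:**
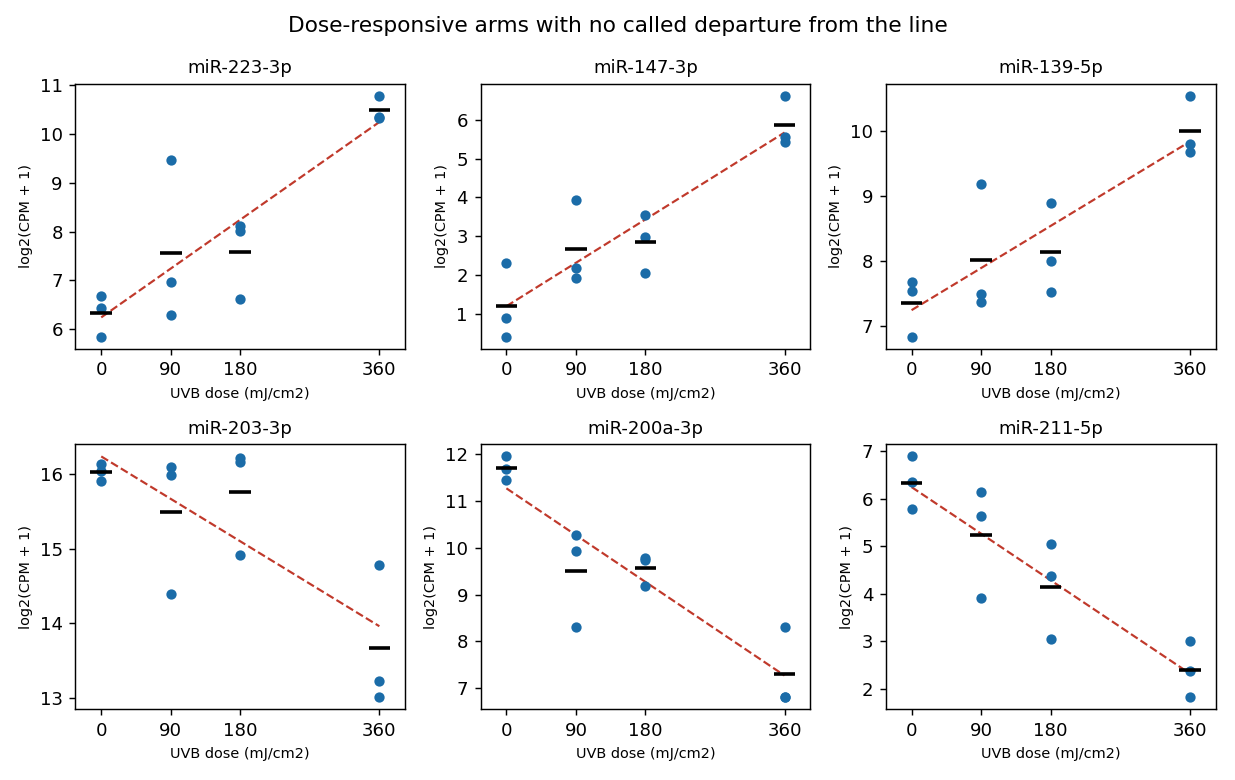
Axes and symbols are as in the plot of plateau arms, for dose-responsive arms whose departure was not called. The UVB_360 libraries of miR-223-3p and miR-147-3p lie above all others, with 1 UVB_90 library well above the rest of its group, and the means of miR-211-5p lie on the line.

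The 4 means were also set against shapes with a single parameter: a straight line, a line in log2(1 + dose/90), and each split of the doses into 2 levels. Among the 237 arms that differed between doses, the lowest residual belonged to a step between control and all irradiated groups in 88 (37.1%), to the log-dose line in 67 (28.3%), to the straight line in 34 (14.3%), to a split of the middle doses from both ends in 23 (9.70%) and to a step at 360 alone in 15 (6.33%). The log-dose line left a smaller residual than the straight line in 176 of the 237, and in 374 of all 590. Arms that rose at 360 over control (119 arms, 20.2%) had a median of 57.1% of their log2 change at 90 mJ/cm2 and 68.0% at 180. Arms that fell (116 arms, 19.7%) had 54.3% and 64.0%, where a straight line has 25% and 50%.

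Most calls depended on the dose scale of the line. Against a line in log2(1 + dose/90), 3 arms departed: miR-34b-5p, miR-31-5p and miR-136-5p, each with a limma adjusted p of 0.042. Against a line in the rank of the dose, 19 arms departed, all of them among the 54. Without the logarithm of CPM, 4 arms departed from a straight line, of which miR-497a-5p, miR-181c-5p and miR-150-3p were among the 54.

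**Figure D5:**
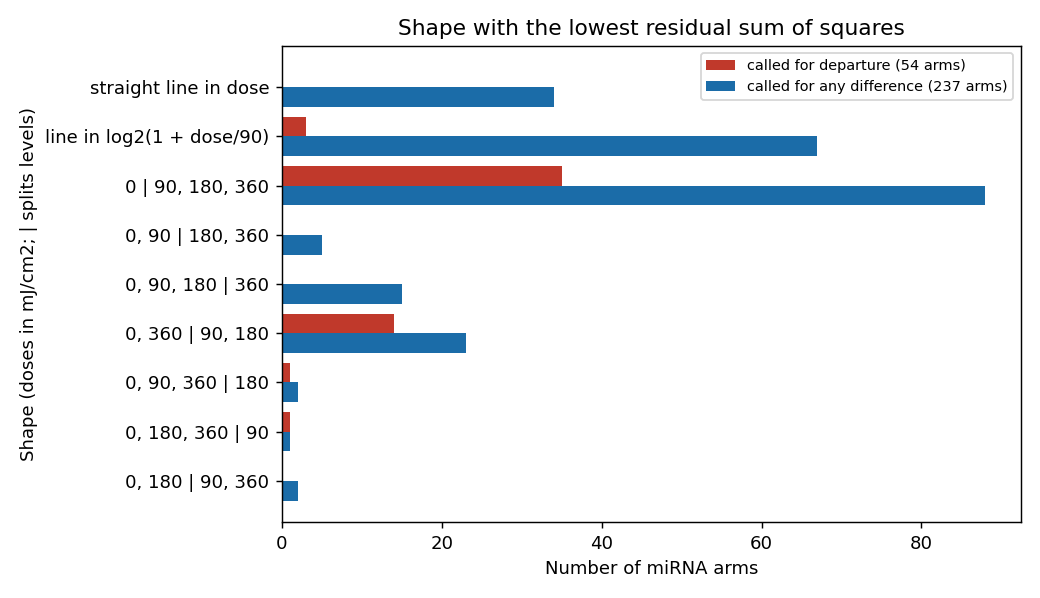
The number of arms (horizontal axis) whose 4 group means left the lowest residual with each shape (vertical axis, doses in mJ/cm2, where a bar splits the doses into 2 levels), for the 54 arms called for departure in red and the 237 called for any difference in blue. The step between control and all irradiated groups is the longest bar in both sets.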

How the data were processed

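Skin was flash frozen, RNA was taken up in Trizol, and, per the labels' protocols, small RNA libraries from a NEBNext kit were run on a NextSeq. The authors deposited CPM for 1519 mature miRNA arms, and each library sums to 1000000. The genome build is mm9, per the submitters' processing notes. The choice of aligner, counter and trimming was not given in the sources used here. Whole reads were recovered for the count tests, since 100% of a library's values came out whole in units of 1 read, within a tolerance of 0.01 reads. Reads carry no molecular identifiers, so limits from read counts cover counting error only. Ligation favours some RNA ends, so an arm was compared across libraries and not with other arms.

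Groups came from the titles. Arms reaching 1 CPM in 3 or more libraries were fitted in R 4.3.3 by limma 3.58.1 with its trend option, as log2(CPM + 1), giving a mean per dose, all 12 libraries sharing an estimate of spread and no replicate term. Departure from the line is a moderated F test of both bends together, and p-values were adjusted by Benjamini-Hochberg over all 590 arms and are two-sided. No permutation test was used. For a comparison of a pair of doses the smallest exact p for 3 libraries against 3 is 0.1, a limit that does not apply to the departure test. The fits were tested on simulated data. Alternatives included edgeR 4.0.16 and DESeq2 1.42.0 on recovered reads, other pseudocounts, filters, scalings and dose scales, and leaving out each library. The arms and lists were chosen with earlier results of these data known.

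Arms named are those with a mean of at least 10 CPM and, in each class and direction, the 4 smallest departure p-values, for each bend the 5 smallest p of each sign, the 5 straightest, those turning on both sides, and 26 arms listed by name; others are said to be chosen after their values were seen or are members of a family described in full. Sequences were matched by arm name to RefSeq's mature miRNAs.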

Additional observations from a re-analysis of the deposited data

How the results depend on the processing

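Departures numbered 105 in DESeq2, 19 against a line in dose rank, 3 against a line in log2(1 + dose/90), 4 without the logarithm, 17 without UVB_90 replicate 3 and UVB_180 replicate 1 together, and 13 to 105 leaving out single libraries. The causes of these moves were not tested. With those 2 libraries left out there were 8 saturating, 3 peak and 6 trough arms, 6 arms turning on both sides, 70 calls at 90 over 0 and 49 at 360 over 180. Wide bends numbered 0 in that fit, 0 without the logarithm, 62 in DESeq2 (34 negative, 28 positive), 8 at a pseudocount of 0.25 (7 negative, 1 positive) and 4 on totals that omit miR-1a-3p and miR-21a-5p (3 negative, 1 positive). Negative wide bends numbered 7 with TMM or DESeq2 scaling, and positive ones 4 in edgeR, 5 with TMM, and 1 at a pseudocount of 5, with no filter or with a mean of at least 10 CPM. Narrow bends numbered 3 in edgeR, 22 in DESeq2 and 1 without the logarithm.

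Leaving out single libraries gave 0 to 69 wide bends (0 to 29 negative, 0 to 40 positive), 0 to 46 narrow bends, 154 to 247 arms with any difference, 50 to 173 calls at 90 over 0, 0 to 45 at 360 over 180, 0 to 14 arms turning on both sides, and 10 to 63 saturating, 1 to 14 peak, 2 to 17 trough and 0 to 1 late-onset arms. The lowest counts of departures, of saturating, peak and trough arms and of calls at 90 over 0 came without control replicate 1. The highest of these came without control replicate 3. Calls at 360 over 180 numbered 0 in edgeR, 64 in DESeq2 and 4 with a robust prior and no trend. Without the logarithm 154 arms had any difference and 80 were called at 90 over 0. Slopes called as falls numbered 56 with the 2 arms out of the totals, a scaling that moved the median change at 360 over 0 by 0.259 log2 units, and slopes called as rises 60 with a mean of at least 10 CPM. Late-onset arms numbered 1 at a pseudocount of 5, 2 with no filter and 1 with that mean. Looser class limits gave 16 peak and 16 trough arms, and a pseudocount of 5 gave 6 trough arms. Arms turning on both sides numbered 6 in DESeq2. The wide bend of miR-200a-3p, -0.14 and not called, was 1.54 with a called departure (limma adjusted p = 0.0365) without the logarithm, in units of its mean.

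With the replicate numbers of the titles as a replicate block, departures numbered 58, 48 of them among the 54, and wide bends 0, with a smallest limma adjusted p of 0.0501. Deviations of same-numbered libraries correlated at -0.223 to 0.241, and the labels tie the numbers to nothing shared, so the numbers were not taken as a pairing. Among libraries of other doses, the best correlated one carried the same number for 3 of the 12 libraries. Of the alternative values of named arms, 4339 kept their side of the threshold and direction, 306 lost a call, 46 gained one and 1 changed sign. Depth limits arms near the floor, since 3 reads were worth 0.372 to 0.948 CPM.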
